A study of Homo sapiens with 12 samples.

Results

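HOX cluster genes were followed in human prostate cancer cells that are sensitive or resistant to docetaxel, a taxane drug that stabilises microtubules. Members were the probe sets present on both array types of the study whose single annotated gene symbol is a gene of the HOXA, HOXB, HOXC or HOXD cluster. This gave 31 probe sets for 24 genes, of 19033 probe sets (11939 genes) with 1 symbol that were analysed. HOXB held 13 of them (9 genes), HOXD 10 (7 genes), HOXC 7 (7 genes) and HOXA 1 (HOXA2), so the account of HOXA rests on a single gene. A further 3 probe sets annotated to a HOX gene and to other symbols were left out.

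Total RNA of 4 groups was measured on 12 Affymetrix arrays, 3 per group. DU145 is a prostate carcinoma line from a brain metastasis, and 22Rv1 is a prostate carcinoma line derived from a xenograft. Both parental lines were grown in RPMI with fetal bovine serum and no drug. Their docetaxel-resistant counterparts, DU145-DR and 22Rv1-DR, were grown in the same medium under docetaxel, so each comparison with the parental line joins resistance and drug exposure. The labels name 1 resistant derivative of each line and do not say that replicates were separate cultures, so the p-values speak to the spread among these arrays alone, and that spread may be technical. In RNA from whole cultures, fewer cells that express a gene and less RNA per cell cannot be told apart.

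HOX proteins are homeodomain transcription factors that give cells a position along the body axis. Their genes lie in 4 clusters, and the order of the genes along a cluster matches the order of their expression along the embryo, with low-numbered genes in front and high-numbered genes behind. Active and silent stretches of a cluster are kept by Trithorax and Polycomb group proteins, retinoic acid is an upstream signal, and the TALE homeodomain proteins of the PBX and MEIS families are HOX cofactors. In the prostate, HOXB13 is a lineage factor of the luminal epithelium that interacts with the androgen receptor.

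Replicates 1 and 2 of each group are on an array type with 22215 probe sets and were tested in 1 table of 8 arrays. Replicate 3 of each group is on a larger type with 54613 probe sets; its values, called the third pair below, have no test. DU145 arrays had a higher floor than 22Rv1 arrays in the 8-array table (5th percentile 35.8 to 38.6 against 11.5 to 12.3), so the lines were compared only after quantile normalization within a table. The correlation between any pair of arrays was at most 0.990 in the 8-array table and 0.972 in the 4-array table, and 0 columns were identical in either. Of 4 epithelial markers, all were bright in DU145, 22Rv1 and 22Rv1-DR and 3 in DU145-DR, where CDH1 (E-cadherin) was at 38.6 and 40.2. Of 6 prostate luminal genes, 2 were bright in DU145, 1 in DU145-DR and 5 in each of the 22Rv1 groups. No leukocyte marker (of 4) or endothelial marker (of 3) was bright in any group, and 2 of 5 fibroblast markers were bright in each. The summed intensity of the 5 fibroblast markers was 706 to 1043 in DU145, 733 to 993 in DU145-DR, 198 to 208 in 22Rv1 and 234 to 248 in 22Rv1-DR. These are sums of deposited values, so they are not to be compared between the lines, whose floors differ. The 4 leukocyte markers, bright in no group, summed to 260 to 279 in DU145 and 84.0 to 86.9 in 22Rv1. The part of the fibroblast markers in the HOX values was not tested.

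The HOXC cluster was measured above the dim range in both lines and the HOXD cluster was not. A probe set is called bright in a group where its arrays in the 8-array table all exceed that array's own 40th percentile; over all 19033 probe sets the bright share was 58.0% in DU145 and in DU145-DR, 59.0% in 22Rv1 and 58.8% in 22Rv1-DR. Of the HOXC probe sets, 6 of 7 were bright in every group, namely HOXC4, HOXC5, HOXC6, HOXC10, HOXC11 and HOXC13, with HOXC8 below the cut-off. Of the HOXB probe sets, 6 of 13 were bright in DU145 and in DU145-DR, 8 in 22Rv1 and 7 in 22Rv1-DR. Of the HOXD probe sets, 0 of 10 were bright in any group, and HOXA2 was not bright in any. Over the members, 11 probe sets were bright in all 4 groups, 16 in none, and 4 in some groups (HOXB1, HOXB2, 1 of the probe sets of HOXB5, and HOXB13). On the larger array, whose percentiles are taken over more probe sets, 20 to 22 of 31 were above the 40th percentile, including 4, 3, 2 and 2 of the 10 HOXD probe sets in DU145, DU145-DR, 22Rv1 and 22Rv1-DR.

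**Figure D1:**
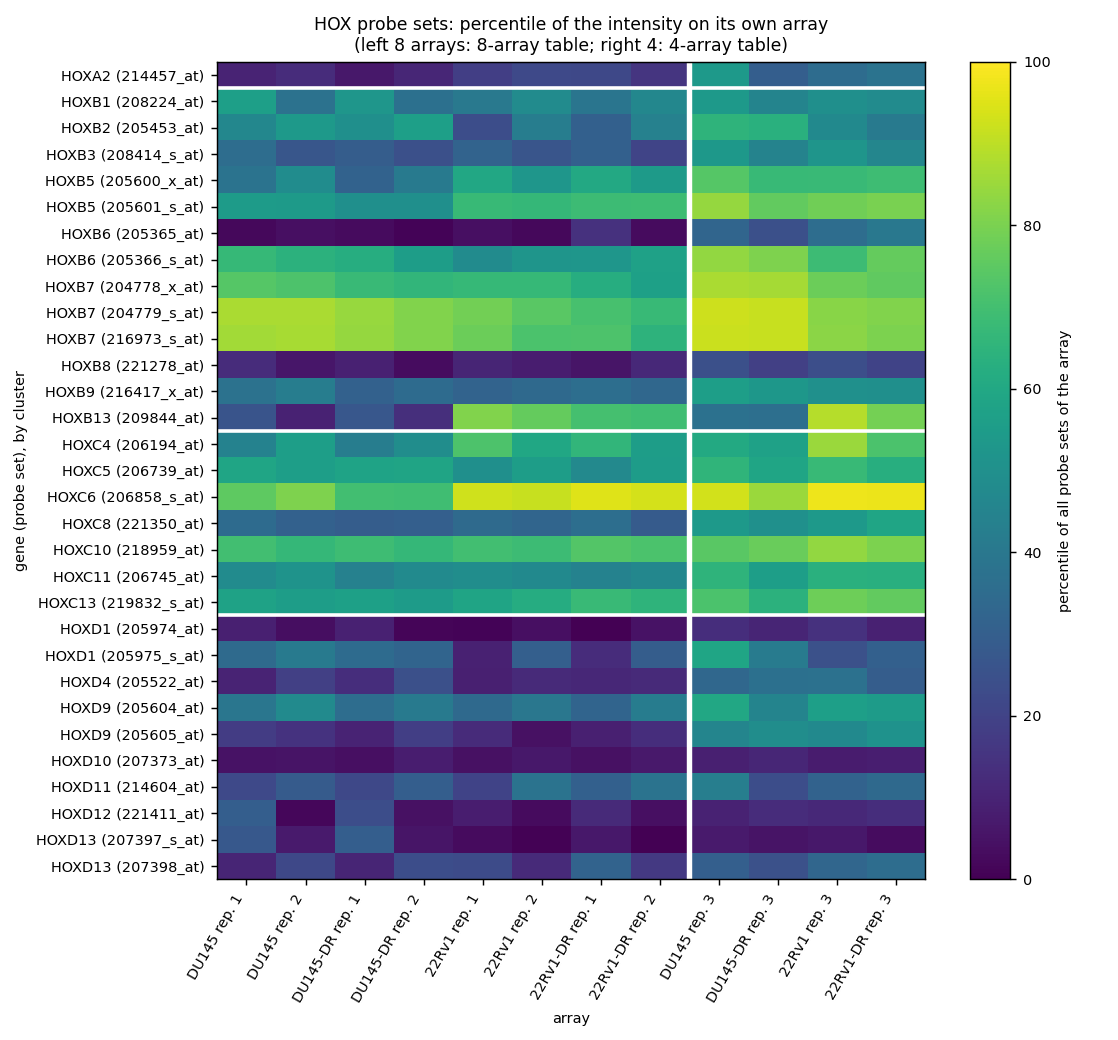
Percentile of each of the 31 HOX probe sets within its own array, as a colour scale from 0 to 100, in cluster order, with the 8 arrays of the tested table on the left and the 4 arrays of the larger type on the right. On the 8 arrays, HOXC probe sets other than HOXC8 lie above the 40th percentile in every group, all 10 HOXD probe sets are not bright in any group, and HOXB13 is between the 9.5th and 27.0th percentile in the DU145 groups and between the 69.2nd and 81.2nd in the 22Rv1 groups.

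Within HOXD the readings ranged from the floor to the 48.0th percentile on the 8 arrays. The highest were those of HOXD9 205604_at, between the 32.3rd and 48.0th percentile of the 8 arrays, and of HOXD1 205975_s_at, between the 32.3rd and 40.8th in the DU145 groups. On the DU145 array of the third pair these 2 probe sets lay at the 60.1st and 59.0th percentile. HOXD10, a posterior gene, lay between the 4.2nd and the 8.0th percentile of its array in the 8-array table, which is at the floor. HOXD13, a posterior gene of limb and urogenital development, has a pair of probe sets. Its probe set 207398_at read 47.2 and 56.9 in DU145, 45.3 and 59.7 in DU145-DR, 19.2 and 14.1 in 22Rv1, and 24.6 and 15.8 in 22Rv1-DR. Those readings overlap between the parental and resistant arrays of both lines. The resistant minus parental difference was 0.01 ± 0.20 (SE) log2 units in DU145 and 0.14 ± 0.20 in 22Rv1, and the parental lines differed by 0.04 after quantile normalization. The other HOXD13 probe set, 207397_s_at, gave 0.00 in each resistant line and -0.45 between the parental lines (adjusted p 0.247 from limma). Values at the floor give no order, so the HOXD10 and HOXD13 readings are bounds.

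HOXC4, HOXC5 and HOXC6 are neighbours whose RefSeq gene records begin at the same start, and the HOXC4 and HOXC5 entries share 1 promoter window. That window is shown because it stands before the shared start of these records. It is the 250 bases before the annotated start, chr12:54016638-54016887 on the plus strand of GRCh38.p14, with matches to the CCAAT box (letters CCAAT, either strand) in capitals.
HOXC4 and HOXC5: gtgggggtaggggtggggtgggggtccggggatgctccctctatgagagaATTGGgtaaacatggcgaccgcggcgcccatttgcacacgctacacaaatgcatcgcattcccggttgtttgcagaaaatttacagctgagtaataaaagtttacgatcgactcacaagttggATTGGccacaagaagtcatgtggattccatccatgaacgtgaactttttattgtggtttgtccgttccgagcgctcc
Both matches are on the minus strand and begin 200 and 77 bases before the start. The CCAAT letters occur in 32.0% of all 35116 RefSeq promoter windows and in 8 of the 9 distinct windows found for member genes (10 of the 24 genes had an entry). The TATA box (TATAAA), the GC box (GGGCGG), the E-box (CACGTG) and a HOX-PBX composite motif (TGATNNAT) had no match on either strand of this window. The TATA box occurs in 10.7% of all windows and in 1 of the 9, the GC box in 42.6% and 4, the E-box in 6.34% and 4, and the HOX-PBX motif in 6.47% and 3. The window holds 14 CpG dinucleotides, against a median of 11 over all windows. The start each line uses was not measured.

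HOX probe sets passed the test between the lines. In parental 22Rv1 against parental DU145, HOXB13, HOXC6 and 1 of the probe sets of HOXB5 were higher in 22Rv1, while HOXB6 and HOXB7 were lower. By limma's moderated test with Benjamini-Hochberg adjustment over all 19033 probe sets, 6 of 31 passed an adjusted p of 0.05 (19.4%), where 34.6% of all probe sets passed. Of these, 3 were higher and 3 lower in 22Rv1, against 18.1% and 16.5% of all probe sets. The members' share was below that of all probe sets, also at an unadjusted p under 0.05 (11 of 31, 35.5%, against 43.9%). These shares, and those below, are not matched for brightness, and 16 of the 31 members were bright in no group. Whether HOX probe sets differ less between the lines than others of like brightness was not tested. In the following, line comparisons are differences of log2(intensity + 16) after quantile normalization, 22Rv1 minus DU145, with the SE from limma, n = 2 per group.

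HOXB13 had the largest difference among the members. Its normalized intensity was 37.8 and 24.1 in DU145 and 756 and 557 in 22Rv1, and on the third pair 24.1 and 631. No array of DU145 came near any array of 22Rv1. The difference was 3.84 ± 0.22 (adjusted p 4.89e-05), and 4.01 on the third pair. DU145 was near the floor for this probe set, so the size depends on the value added before the logarithm (4.38 with 1 and 2.91 with 64). Of the 6 luminal genes, TMPRSS2 and the androgen-regulated kallikreins KLK2 and KLK3 were bright in the 22Rv1 groups and not in the DU145 groups. The others did not follow this: STEAP1 was bright in every group, FOXA1 in every group but DU145-DR, and FOLH1 in none. The relation of these genes to HOXB13 was not tested.

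HOXC6, a HOXC gene that is often high in prostate tumours, had the next largest difference in the 8-array fit. Its normalized intensity was 520 and 733 in DU145, 2174 and 1809 in 22Rv1, and 1056 and 2619 on the third pair. The lines did not overlap. The difference was 1.66 ± 0.21 (adjusted p 0.00123), and 1.30 on the third pair. HOXC4, from the same stretch of the cluster, gave 1.25 ± 0.47 (adjusted p 0.0807) and a larger difference than HOXC6 on the third pair, 2.45. HOXC5 gave -0.40 (adjusted p 0.270).

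HOXB7 and HOXB6, neighbours in the middle of the HOXB cluster, were lower in 22Rv1. HOXB7 probe set 204779_s_at read 1186 and 1187 in DU145, 634 and 487 in 22Rv1, and 934 and 341 on the third pair. That is a difference of -1.07 ± 0.19 (adjusted p 0.00494), and -1.41 on the third pair. A second HOXB7 probe set, 216973_s_at, gave -1.16 ± 0.26 (adjusted p 0.0137, but 0.0834 without replicate 2 of 22Rv1 and 0.0613 without replicate 2 of DU145) and -1.31 on the third pair. The remaining one, 204778_x_at, gave -0.49 ± 0.17 (adjusted p 0.0719) and -1.17. All 3 HOXB7 probe sets were thus lower in 22Rv1 on every comparison made, though the call on 204778_x_at missed the threshold.

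HOXB6 probe set 205366_s_at read 314 and 268 in DU145, 101 and 126 in 22Rv1, and 392 and 115 on the third pair. The difference was -1.25 ± 0.24 (adjusted p 0.00647), with -1.64 on the third pair. Without replicate 1 of 22Rv1 the adjusted p was 0.0507. The other HOXB6 probe set, 205365_at, was at the floor in both lines and gave 0.00, so the gene's call rests on 1 probe set.

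HOXB5 did not keep its direction on the larger array. Probe set 205601_s_at read 151 and 145 in DU145 and 323 and 312 in 22Rv1, a difference of 1.02 ± 0.11 (adjusted p 0.000618). On the third pair the order was turned, with 395 in DU145 and 246 in 22Rv1 (-0.65). The other HOXB5 probe set, 205600_x_at, did the same, at 0.94 ± 0.32 (adjusted p 0.0619) and -0.58 on the third pair. In a fit of all 12 arrays with a term for the table the call on HOXB5 was lost (0.47, adjusted p 0.316).

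That 12-array fit called 10 of 31 (32.3%, against 32.8% of all probe sets). Besides HOXB13, HOXC6, HOXB6 and now all 3 probe sets of HOXB7, it called HOXC4 higher in 22Rv1 (1.65, adjusted p 0.00783), beside 1.54 for HOXC6. It called HOXB2, HOXB9 and HOXD1 lower (-0.98, -0.32 and -0.80). HOXB2, an anterior gene that patterns the hindbrain, gave -0.94 ± 0.36 in the 8-array fit (adjusted p 0.0877) and -1.07 on the third pair. HOXD1 probe set 205975_s_at gave -0.61 ± 0.24 (adjusted p 0.0983) and -1.19. HOXB2, HOXB9, HOXC4, HOXC5, HOXC10, HOXC11, HOXC13 and HOXD1 are described here after their values were seen.

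**Figure D2:**
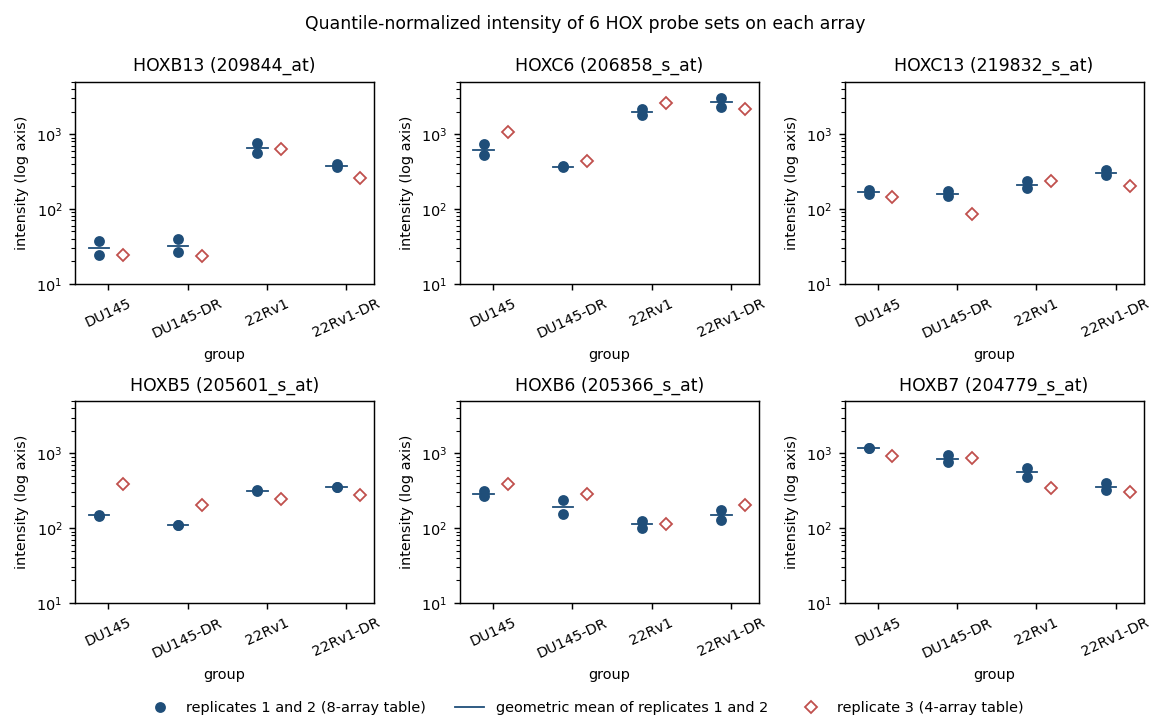
Quantile-normalized intensity (log axis) of 6 HOX probe sets in each of the 12 arrays, by group, with the third pair marked apart since it comes from another array type. HOXB13 and HOXC6 are higher in the 22Rv1 groups and HOXB7 lower in every array, and the HOXB5 points of the third pair turn the parental order.

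Of the 6 probe sets called between the parental lines, 5 were called between the resistant lines too, each with the same sign; HOXB6 was not. In 22Rv1-DR against DU145-DR 8 of 31 passed (25.8%, against 34.7% of all probe sets), 5 higher (against 17.9%) and 3 lower (against 16.8%). The 12-array fit called 9 (against 33.2%). HOXB13 differed by 3.01 ± 0.22 (adjusted p 0.000133), from 39.0 and 26.9 in DU145-DR to 393 and 360 in 22Rv1-DR, and by 2.80 on the third pair. HOXC6 differed by 2.80 ± 0.21 (adjusted p 0.000141), from 373 and 363 to 3022 and 2334, and by 2.29 on the third pair. Beside its parental difference of 1.66, this HOXC6 value enters the test of the lines' changes below.

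Both HOXB5 probe sets passed between the resistant lines, at 1.55 ± 0.11 (adjusted p 0.000117) and 1.43 ± 0.32 (adjusted p 0.0133). Here the third pair had the same sign and smaller differences, 0.40 and 0.16. All 3 HOXB7 probe sets were lower in 22Rv1-DR, by -1.20 ± 0.19, -1.24 ± 0.26 and -0.61 ± 0.17 (adjusted p 0.00306, 0.0107 and 0.0348), with -1.46, -1.52 and -1.26 on the third pair. Single arrays decided some of these calls. HOXB7 204778_x_at lost its call without any 1 of 7 arrays (adjusted p up to 0.169, without replicate 2 of 22Rv1-DR). HOXB7 216973_s_at lost its call without replicate 2 of 22Rv1-DR (0.0571) or replicate 1 of DU145-DR (0.0519). HOXB5 205600_x_at lost its call without replicate 1 of 22Rv1-DR (0.0855) or of DU145-DR (0.0640), and in the 12-array fit (1.01, adjusted p 0.0653). HOXC13, the most posterior HOXC gene, passed in this comparison, at 0.86 ± 0.16 (adjusted p 0.00674), and by 1.11 on the third pair. Its normalized intensity was 171 and 149 in DU145-DR and 328 and 280 in 22Rv1-DR, and without replicate 1 of 22Rv1-DR its adjusted p was 0.0511. HOXB6, which differed between the parental lines, gave -0.33 ± 0.24 (adjusted p 0.340) between the resistant ones.

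**Figure D3:**
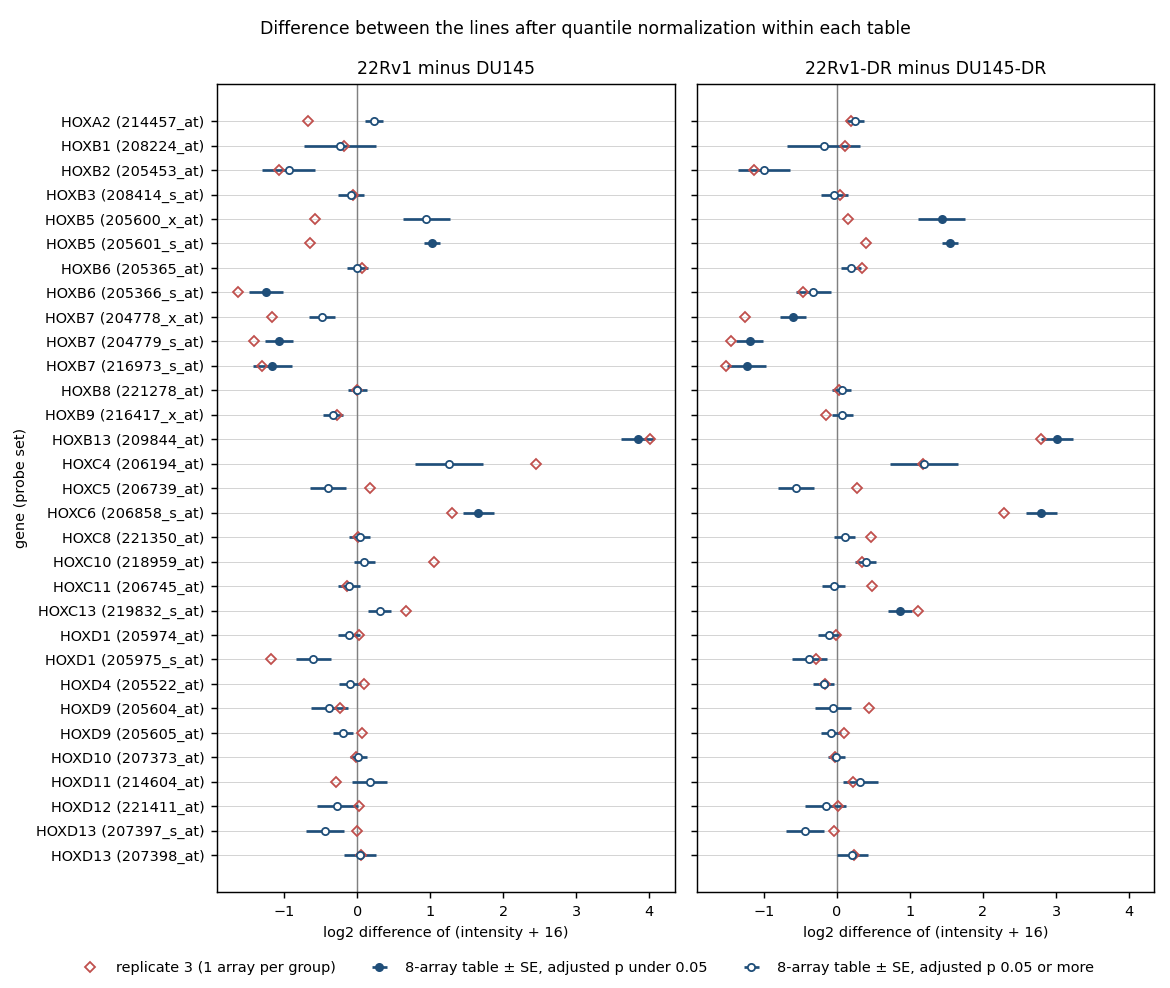
Difference 22Rv1 minus DU145 for each HOX probe set on log2(intensity + 16) after quantile normalization, for the parental and the resistant lines, with the SE from limma as bars, filled points for an adjusted p under 0.05 and the third pair as open diamonds. HOXB13 stands apart at 3.84 and 3.01, HOXC6 at 1.66 and 2.80, and the 3 HOXB7 probe sets lie below 0 in both comparisons.

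Between resistant and parental cells of a line no HOX probe set passed in the main fit, which has no term for the replicate number. With that number as a block, 6 of 31 passed in DU145 (19.4%, against 25.1% of all probe sets). In 22Rv1 3 of 31 did (9.68%, against 16%). In DU145-DR against DU145, 0 of 31 probe sets passed by limma, against 6.87% of all probe sets, and 4 had an unadjusted p under 0.05 (12.9%, against 18.9%). These were HOXC6, HOXB6 205366_s_at, HOXB5 205601_s_at and HOXB9. Within-line differences are resistant minus parental on log2(intensity + 16) of the values as deposited. The members' median was -0.13, against -0.01 over all probe sets, and -0.21 against -0.02 on the third pair. The value lay below 0 in 24 of 31 probe sets, against 53.0% of all probe sets in the 8-array table. On the third pair it did so in 25, against 52.5%. Both DU145-DR arrays lay below both DU145 arrays for 12 probe sets (38.7%, against 17.2% of all) and above them for 0 (against 17.8%). Of the 12, 11 were also below 0 on the third pair, which is 35.5% of the 31 members, and 13.8% of all probe sets met both conditions. The 12 share arrays and the 3 HOXB7 and the pair of HOXB5 probe sets share genes, so they are not independent.

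HOXC6 had the lowest value in this comparison. Its intensity was 755 and 1269 in DU145, 556 and 626 in DU145-DR, and on the third pair 1024 and 443. The groups did not overlap. The difference was -0.72 ± 0.28 (p 0.036, adjusted p 0.216), and -1.18 on the third pair.

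HOXB5, HOXB6, HOXB7 and HOXB9 also had low values. HOXB6 205366_s_at read 481 and 455 in DU145 and 375 and 261 in DU145-DR (-0.56 ± 0.20, adjusted p 0.176), with 375 and 304 on the third pair. HOXB5 205601_s_at read 260 and 247 against 197 and 184 (-0.39 ± 0.14, adjusted p 0.192), with 377 and 215 on the third pair. HOXB7 204779_s_at read 1652 and 2077 against 1342 and 1351 (-0.46 ± 0.23, adjusted p 0.364), with 904 and 879 on the third pair. HOXB9 216417_x_at read 119 and 123 against 89.3 and 86.2 (-0.40 ± 0.13, adjusted p 0.144), with 52.3 and 43.4 on the third pair. The groups did not overlap for any of these 4 probe sets in the 8-array table, and the HOXB7 values of the third pair were nearly equal (-0.04). HOXB13, near the floor in DU145, gave 0.05 ± 0.32.

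The calls in DU145 depended on how replicates were handled. The parental and the resistant array of 1 replicate number deviated together, and with the number as a block limma called 6 of 31, all lower in DU145-DR (19.4%, against 25.1% of all probe sets). They were HOXC6 (adjusted p 0.0289), HOXB6 205366_s_at (0.0297), HOXB7 204779_s_at (0.0322), HOXB9 (0.0247) and both HOXB5 probe sets (0.0172 and 0.0183). All 12 arrays with a table term in each line, a fit added after the data were seen, called 3 of 31 (9.68%, against 14.2%), and with a single table term 0 of 31 (against 3.09%). The 3 were HOXC6 (-0.87 ± 0.24, adjusted p 0.0427), HOXB5 205601_s_at (-0.51 ± 0.12, adjusted p 0.0200) and HOXC11 (-0.43 ± 0.12, adjusted p 0.0396), all lower. The single table term gives both lines 1 shift between the tables. The 5th percentile of DU145 arrays was 35.8 to 38.6 in the 8-array table and 10.9 to 11.0 in the 4-array table. In 22Rv1 it was 11.5 to 12.3 and 10.9 to 11.0. For HOXB5 205601_s_at the SE was 0.32 with the single term and 0.12 with a term in each line. In each fit the called share of HOX probe sets was below that of all probe sets. The shares of all probe sets count calls in both directions, whereas the called members were all lower. The share of all probe sets called lower in these fits is not given here.

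In 22Rv1-DR against 22Rv1, 0 of 31 passed by limma, against 3.22% of all probe sets, and 3 had an unadjusted p under 0.05 (9.68%, against 13.2%): HOXC13 and the HOXB7 probe sets 204778_x_at and 204779_s_at. The median was 0.01, against 0.00 over all probe sets, and 14 of 31 lay below 0, against 49.5% of all probe sets. On the third pair the median was -0.07 against 0.03, and 19 of 31 lay below 0 against 43.1%. The groups did not overlap for 5 probe sets that were higher (16.1%, against 23.1%) and 4 that were lower (12.9%, against 20.4%). All 4 of the lower kept their sign on the third pair, which is 12.9% of the 31 members against 13.5% of all probe sets. Of the 5 higher, 2 did so, which is 6.45% of the members against 16% of all.

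HOXB13 had the lowest value in 22Rv1-DR. Its intensity was 481 and 338 in 22Rv1, 267 and 217 in 22Rv1-DR, and 635 and 256 on the third pair. All 3 resistant arrays were below the parental arrays of their own table. The difference was -0.71 ± 0.32 (95% interval -1.46 to 0.04, adjusted p 0.419), and -1.26 on the third pair. With the replicate number as a block it passed (adjusted p 0.0109), as did HOXB7 204779_s_at, lower (0.0278), and HOXC10, higher (0.0369), which makes 3 of 31 (9.68%, against 16%). In the 12-array fit with a table term in each line it was -0.89 ± 0.25 with an adjusted p of 0.0964, and that fit called 0 of 31 (against 3.9%), as did the fit with a single table term (against 1.47%).

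Several HOXC genes of 22Rv1 did not have the same sign on both array types. HOXC6 read 1448 and 1160 in 22Rv1 and 2062 and 1541 in 22Rv1-DR (0.46 ± 0.28, adjusted p 0.672), but 2628 and 2210 on the third pair (-0.25). HOXC13 read 117 and 133 against 220 and 164 (0.55 ± 0.18, adjusted p 0.216), but 236 and 198 on the third pair (-0.23). HOXC10 gave 0.35 ± 0.16 (adjusted p 0.433) and -0.48. For these 3 genes the third pair turned the sign, so their direction in 22Rv1-DR is not settled by these arrays, the blocked call on HOXC10 included. HOXC4 gave -0.38 ± 0.49 and -1.55, the lowest member on the third pair.

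HOXB6 and HOXB7, side by side in the cluster, had opposite signs in 22Rv1-DR on both array types. HOXB6 205366_s_at read 58.5 and 67.6 in 22Rv1, 83.3 and 98.4 in 22Rv1-DR, and 116 and 204 on the third pair (0.43 ± 0.20, adjusted p 0.429; 0.73). HOXB7 204779_s_at read 402 and 294 against 271 and 195, with 345 and 300 on the third pair (-0.55 ± 0.23, adjusted p 0.357; -0.19). Neither passed, and the difference between the genes was not tested.

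**Figure D4:**
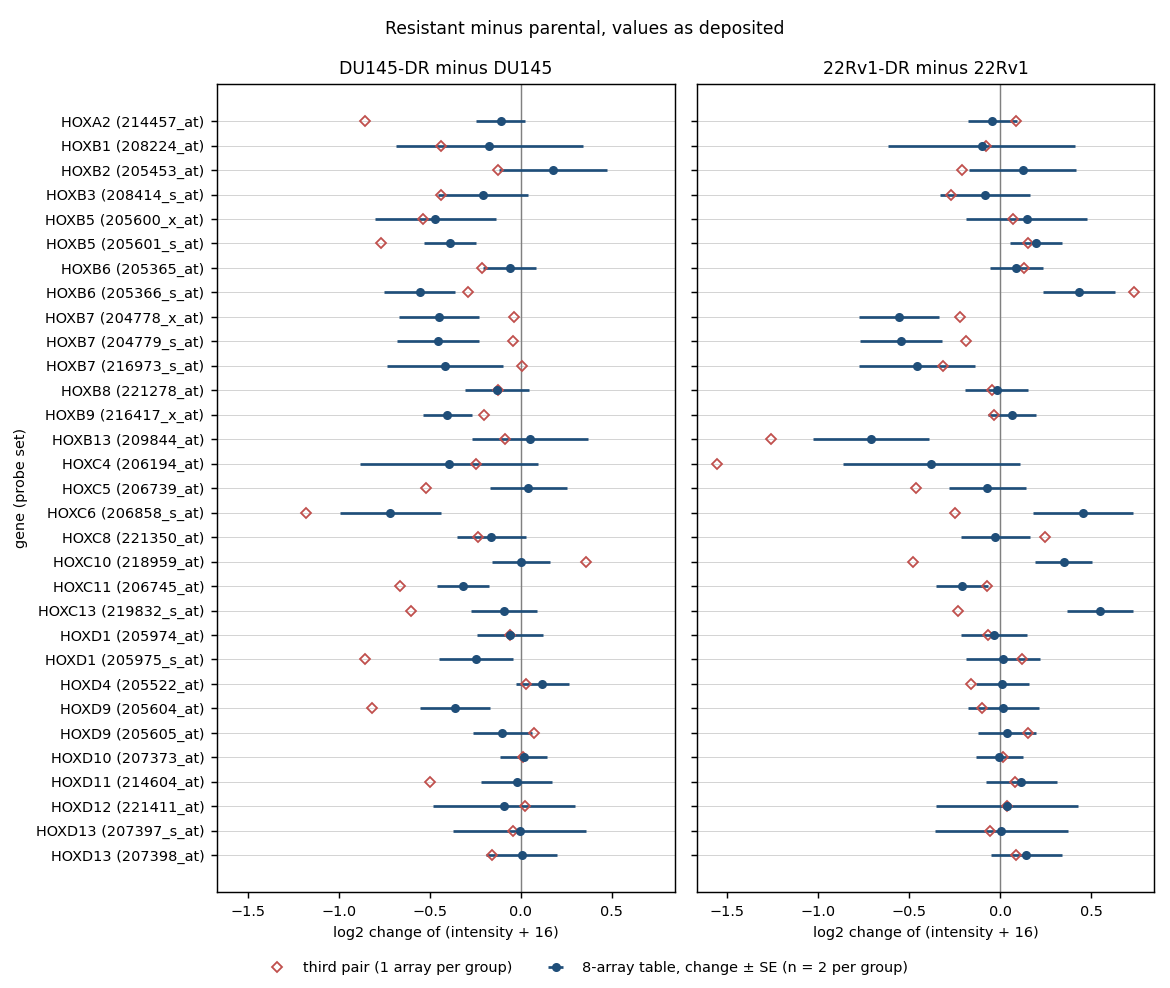
Resistant minus parental difference of each HOX probe set in DU145 and in 22Rv1 on log2(intensity + 16), with the SE from limma as bars (n = 2 per group) and the third pair as open diamonds. Most DU145 values lie a little below 0, with HOXC6 lowest, while in 22Rv1 the values lie on both sides of 0, HOXB13 being lowest in the 8-array table (-0.71) and HOXC4 on the third pair (-1.55).

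The difference between the lines' changes was tested directly, as the 22Rv1 change minus the DU145 change after quantile normalization. Of the 31 probe sets 0 passed by limma, against 7.45% of all probe sets, and 5 had an unadjusted p under 0.05 (16.1%, against 20.3%). HOXC6 gave 1.14 ± 0.30 (adjusted p 0.0728) and 0.99 on the third pair, HOXB6 205366_s_at 0.93 ± 0.33 (adjusted p 0.171) and 1.18. HOXB5 205601_s_at gave 0.52 ± 0.16 (adjusted p 0.107) and 1.05, and HOXB13 -0.83 ± 0.31 (adjusted p 0.196) and -1.21. These 4 genes had the same sign on both array types. HOXC13 gave 0.56 ± 0.23 (adjusted p 0.237) and 0.45 on the third pair, also the same sign.

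Blocking on the replicate number, limma called those 4 probe sets (12.9%, against 21.5%): HOXB6 (adjusted p 0.0198), HOXB13 (0.0220), HOXC6 (0.0231) and HOXB5 (0.0288). The 12-array fit with a table term in each line also called these 4 (against 11.3%), at 1.01 ± 0.26 for HOXB6 (adjusted p 0.0387), -0.96 ± 0.25 for HOXB13 (0.0437), 1.09 ± 0.29 for HOXC6 (0.0461) and 0.70 ± 0.16 for HOXB5 (0.0279). With a single table term 2 of 31 were called (against 8.54%), HOXB13 (adjusted p 0.0410) and HOXB6 (0.0425). The calls on line-specific change thus came only with the replicate or table terms or, for HOXC6 alone, with an intensity trend (adjusted p 0.0456).

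The genes that act on or with HOX genes were counted by lists, 1 probe set per gene, where 7.89% of 11939 genes passed in DU145-DR and 3.94% in 22Rv1-DR. Of the TALE cofactors (PBX, MEIS, PKNOX and related homeodomain proteins) 0 of 8 measured passed in either line, and of the Polycomb group, which keeps silent HOX genes silent, 0 of 22. The list medians were 0.03 and 0.00 for the cofactors and 0.08 and 0.04 for Polycomb in DU145-DR and 22Rv1-DR, against -0.01 and 0.00 over all genes. Of 18 Trithorax and MLL group genes 1 passed, MLLT3, a partner of MLL in leukaemic fusions, which fell in DU145-DR (-1.83 ± 0.35, adjusted p 0.0275). The third pair gave -2.25, and the call was lost without either DU145 replicate (adjusted p 0.139 and 0.0628), replicate 2 of DU145-DR (0.054) or either 22Rv1-DR replicate (0.0515).

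The retinoic acid list had the most calls. In DU145-DR 5 of 20 passed, 4 lower and 1 higher. ALDH1A3, which makes retinoic acid, fell by 2.50 ± 0.23 (adjusted p 0.00184), from 2106 and 2592 to 331 and 484, with -2.69 on the third pair. PLAAT4 (RARRES3), a retinoid-induced phospholipase, fell by 2.24 ± 0.24 (adjusted p 0.0032), and CYP26A1, which degrades retinoic acid, by 1.64 ± 0.18 (adjusted p 0.00385), with -4.43 and -0.34 on the third pair. With 12 arrays and a single table term, which gives both lines 1 shift between the tables, the call on CYP26A1 was lost (adjusted p 0.196). The gene that was higher, RXRA, a nuclear receptor that pairs with retinoic acid receptors, rose by 0.90 ± 0.15 (adjusted p 0.0169), with 0.09 on the third pair and no call without replicate 1 or 2 of DU145 (adjusted p 0.086 and 0.0528) or either 22Rv1 replicate (0.051).

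In 22Rv1-DR 3 of 20 passed, all higher. CRABP2, a carrier of retinoic acid, was higher by 2.15 ± 0.25 (adjusted p 0.00576, and 0.0551 without replicate 2 of 22Rv1), with 0.51 on the third pair. DHRS3, which reduces retinal, rose by 1.72 ± 0.17 (adjusted p 0.00262), with 0.39 on the third pair and adjusted p-values of 0.25 and 0.139 in the fits of 12 arrays. RXRA was higher by 0.81 ± 0.15 (adjusted p 0.0371), a call lost on leaving out any of 6 arrays, with 0.59 in the untested pair. Whether any of these genes bears on the HOX values was not tested.

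Of 8 genes listed as caudal-type and related inputs, KLF4 passed in both lines in opposite directions. It rose in DU145-DR (1.14 ± 0.24, adjusted p 0.0395; 0.81 on the third pair) and fell in 22Rv1-DR (-2.56 ± 0.24, adjusted p 0.00257; -2.05 on the third pair). The DU145 call was lost without any of 6 arrays, and the 22Rv1 call held in every setting run. Of the genes listed as neighbours of the clusters, few passed. Among HOXC neighbours 0 of 8 passed in either line. SKAP1, beside HOXB, fell in DU145-DR (-1.22 ± 0.16, adjusted p 0.00833, and 0.277 with 12 arrays and a single table term; 1 of 10 HOXB neighbours), with -0.42 on the third pair. SNX10 and CHN1 come from the lists for the wider HOXA and HOXD regions (1 of 8 each passed in 22Rv1-DR). In DU145-DR they gave -0.51 ± 0.18 and 1.02 ± 0.24 (adjusted p 0.179 and 0.0543 by limma), with -0.29 and 2.17 on the third pair. Both rose in 22Rv1-DR (1.29 ± 0.18 and 1.68 ± 0.24, adjusted p 0.0129 and 0.0133), with 0.26 and 1.08 on the third pair. Leaving out any array of that line ended both calls.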

How the data were processed

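The authors deposited 1 table of 8 arrays and 1 of 4 arrays, which hold probe-set intensity on a linear scale (7.52 to 31216 and 6.73 to 30786). MAS5 and RMA are named per the submitters' processing notes; the sources used here do not say what each did, in which order or in which version. Probe sets with 1 gene symbol in the supplied annotation were used (19033 after leaving out 31 of Y-linked or X-inactivation genes; 19021 matched RefSeq by gene ID). Some HOX genes are not reported here. Probe sets whose ID ends in _x_at or _s_at can read related transcripts, here 1 HOXB5, 1 HOXB7 and the HOXB9 probe set for _x_at. For _s_at they are the tested probe sets of HOXB3, HOXC6 and HOXC13, HOXB5 205601_s_at and HOXB6 205366_s_at. HOXB7 204779_s_at and 216973_s_at, HOXD1 205975_s_at and HOXD13 207397_s_at are also of this kind.

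Values were log2(intensity + 16). The model, from limma 3.58.1 (R 4.3.3; lmFit and eBayes without trend), covered all 8 arrays with a term per group, 4 residual degrees of freedom, 3.01 prior ones (2.79 after quantile normalization) and no filter, so that every member was tested. The number of arrays limits the precision. p-values are two-sided and Benjamini-Hochberg adjusted over all 19033 probe sets, threshold 0.05. Within-line contrasts used deposited values; contrasts between lines used quantile normalization (normalizeQuantiles). The fit was tested on simulated data with independent noise and changes larger than any within-line HOX change seen here. That run does not speak to changes of the HOX size or to replicates that deviate together.

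Replicate numbers come from the sample titles. Deviations from the group mean correlated within a line (0.735 in DU145 and 0.785 in 22Rv1) and hardly across lines (0.0984 and 0.0668). The main fit leaves out this pairing of parental and resistant arrays of a line. The fit with the number as a block takes it in, and blocked values stand beside the within-line results they change. Across lines the numbers were not treated as pairing. Named were members past the threshold, HOXB13, HOXC6 and HOXD13 whatever their result, and up to 4 genes per list by size of change. The members and lists were chosen with earlier results of these data known. Alternatives covered normalization, the added constant, a filter on dim probe sets, 1 probe set per gene, an intensity trend, the block, 12-array fits, only the 4 arrays compared, and leaving out each array.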

Additional observations from a re-analysis of the deposited data

How the results depend on the processing

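The counts of HOX probe sets called, out of 31, moved as follows. With the replicate block, 6 were called in DU145-DR against DU145, 3 in 22Rv1-DR against 22Rv1 and 4 for the difference between the lines' changes, all against 0 without it. Across lines, where samples share only a number, the replicate block gave 9 between the parental lines (against 6; HOXB2, HOXB7 204778_x_at and HOXD1 205975_s_at added) and 10 between the resistant lines (against 8; HOXB2 and HOXC10 added). With 12 arrays and a table term in each line, chosen after seeing the data, 3 were called in DU145-DR and 4 for the difference; with a single table term 2 for the difference and 10 between the parental lines (6 with 8 arrays); with an intensity trend 1 for the difference. Between the resistant lines 5 were called with 1 probe set per gene (of 24 genes). They were HOXB13, HOXB5, HOXB7, HOXC13 and HOXC6, the same genes that hold the 8 probe sets called in the main fit. No share of all probe sets is given here for the replicate block across lines or for the intensity trend. None is given for 1 probe set per gene between the resistant lines either. The counts from those fits are therefore not read as results about the HOX genes. Leaving out each array in turn gave 0 to 0 for both within-line comparisons and for the difference, 5 to 7 between the parental and 5 to 7 between the resistant lines; the array left alone in its group is then assumed to vary like the other groups. Reversed values were all uncalled, and not all were near 0. Leaving out each array gave -0.31 to 0.41 for HOXB13 in DU145-DR and -0.31 to 0.056 for the HOXB7 204779_s_at difference. For HOXD13 207398_at it gave -0.15 to 0.16 in DU145-DR, -0.034 to 0.32 in 22Rv1-DR, -0.051 to 0.40 for the difference, -0.10 to 0.18 between the parental and -0.015 to 0.43 between the resistant lines, and 12 arrays with either table term gave -0.048 in DU145-DR. Over all 5 comparisons, the values of 1 probe set each of HOXB13, HOXC6, HOXC13, HOXB5, HOXB6, HOXB7 and HOXD13 kept direction and side of the threshold in 582 cases, gained a call in 19 and lost one in 3; calls lost by other probe sets on leaving out an array stand beside their values. The filter on dim probe sets left 20 members within lines and 17 between them. The cause of these shifts was not tested. The tested table has 2 arrays per group, and readings near the floor give bounds.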

Other observations

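The larger array alone carries 32 more probe sets for HOX genes and HOX antisense or cluster RNAs, each read once per group and without a test. Of these 18 exceeded the 40th percentile of that table (intensity 26.0) in at least 1 array. The differences below are resistant minus parental on log2(intensity + 16). HOXB3, an anterior HOXB gene, had the lowest value in DU145 (653 in DU145 and 154 in DU145-DR, -1.97) and was low in 22Rv1 too (468 and 215, -1.07), by probe set 228904_at. The HOXB3 probe set on both array types, 208414_s_at, was dim in the 8-array table and above the 40th percentile on these arrays, where it read 46.2, 29.9, 41.9 and 32.0 in DU145, DU145-DR, 22Rv1 and 22Rv1-DR (-0.44 and -0.27). A second HOXB13 probe set, 230105_at, read 1629 in 22Rv1 and 512 in 22Rv1-DR (-1.64), and 33.6 in DU145 and 25.5 in DU145-DR, so both HOXB13 probe sets were lower in 22Rv1-DR on the third pair. HOXA-AS2, an antisense RNA of the HOXA cluster, read 112 in DU145 and 43.7 in DU145-DR (-1.10) by 230080_at. HOTAIR, a long RNA of the HOXC cluster that is known to bind Polycomb proteins, read 53.1 and 16.7 in the same arrays (-1.08) and was dim in 22Rv1 (16.8 and 15.1). HOXB8 229667_s_at read 194 and 88.6 in DU145 and DU145-DR. The highest differences were in 22Rv1 and were picked after seeing the values: HOXB4 231767_at read 130 in 22Rv1 and 226 in 22Rv1-DR (0.73), and HOXA-AS2 230080_at 27.3 and 43.4 (0.46). Of the 32 probe sets 22 were below 0 in DU145 and 17 in 22Rv1, against 54.3% and 45.2% of the 21998 probe sets with 1 symbol on the larger array alone.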
